A study of Mus musculus with 6 samples.

Results

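The JAK, STAT and SOCS signalling genes described here are 10 genes picked by symbol from the 54532 genes of the deposited count table. They are the kinase genes Jak1, Jak2 and Jak3, the transcription factor genes Stat3, Stat5a and Stat5b, and the inhibitor genes Cish, Socs1, Socs2 and Socs3. All 10 passed the filter on low counts. They were compared between T helper 17 (Th17) cells of GOT1-/- mice, which lack the cytosolic aspartate transaminase GOT1 in their T cells, and Th17 cells of wild-type (WT) mice. Both genotypes are on the C57BL/6 strain, and mice of either sex aged 6 to 10 weeks were used. The labels name neither the promoter that drives the T cell deletion nor whether the 3 GOT1-/- and 3 WT libraries came from separate animals. The p-values therefore measure only the spread between these libraries, which may be technical. Sorted naive CD4 T cells of both genotypes received anti-CD3 (5 µg/ml), anti-CD28 (2 µg/ml), TGF-β (2.5 ng/ml), IL-1β, IL-6 and IL-23 (10 ng/ml each) and antibodies against IFN-γ and IL-4 (2 µg/ml each). Cells were refed on day 2, and their poly-A RNA was sequenced on day 4.

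A cytokine that binds its receptor brings JAK kinases together, which phosphorylate the receptor and then a STAT protein, and the STAT enters the nucleus and switches on genes. JAK1 pairs with JAK3 at receptors that hold the common gamma chain (IL-2, IL-4, IL-7, IL-21), and with JAK2 or TYK2 at the IL-6 receptor chain gp130, while JAK2 and TYK2 serve the IL-23 receptor. In CD4 T cells STAT3, activated by IL-6, IL-21 and IL-23, drives the Th17 programme, whereas STAT5, activated by IL-2, restrains it. SOCS proteins and CIS, the product of Cish, are made in response to STATs and shut the pathway down again. CIS and SOCS2 are classical products of STAT5, SOCS3 binds gp130 and is a classical product of STAT3, and SOCS1 blocks JAK kinases directly.

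The STAT proteins bind a short palindrome, TTC, 3 bases of any kind and GAA, so the start regions of these genes were searched for TTCNNNGAA, which reads alike on both strands. RefSeq windows on GRCm38.p6, 250 bases before to 50 after a start site, were at hand for 9 of the 10 genes (11 windows). The motif stood in the windows of Cish and Socs3 and in those of none of the other 7. Of 32851 such windows of all genes, 8.3% held it at least once and 0.457% at least 2 times. A form with 1 more base between TTC and GAA matched in 6.95% of all windows and in none of these 11. The 30 bases around the matches are shown because these genes, an inhibitor linked to STAT5 and one linked to STAT3, differed in opposite directions between genotypes. They read 5′ to 3′ on the gene's strand, with matches in capitals.
Cish: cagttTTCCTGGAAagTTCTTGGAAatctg
Socs3: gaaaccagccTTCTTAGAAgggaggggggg
The Cish stretch (chr9:107296654-107296683, plus strand) holds 2 matches, which begin at bases 1 and 12 counted from the RefSeq start site at 107296659. In GENCODE M21 it lies in a 5′ untranslated exon of the transcript Cish-201. None of the other annotated Cish transcripts holds the whole stretch, and whether any holds part of it was not checked. The Socs3 stretch (chr11:117969501-117969530, minus strand) holds 1 match, 154 bases before the RefSeq start site at 117969366. The stretch lies within the span of the transcript Socs3-202 but not wholly within any of its exons. Socs3-201 and Socs3-203 do not hold the whole stretch, and partial overlap was not checked here either. A match of letters is a description and shows no binding.

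Library totals were 20646004, 22541410 and 17557436 counts for GOT1-/- and 19623164, 21239075 and 16463752 for WT replicates 1 to 3. Got1, the deleted gene, was at 16.2 ± 1.25 CPM in GOT1-/- and 168 ± 4.59 CPM in WT cells (SD, n = 3 each). CPM stands for read counts scaled to a common library size, adjusted with the TMM method of edgeR. T cell markers (8 of 8 tested, 2 higher and 2 lower) summed to 3039 to 3316 CPM in GOT1-/- and 3214 to 3427 CPM in WT libraries, and Th17 markers (6 of 6 tested, 1 higher and 3 lower) to 1255 to 1354 and 1369 to 1485 CPM. Higher and lower here mean called in GOT1-/- cells at an adjusted p under 0.05. Of all 12873 genes tested, 22.9% were called higher and 21% lower. Markers of other cells had lower sums. Macrophage, monocyte and neutrophil markers (7 of 8 tested, 4 higher and 1 lower) summed to 29.5 to 33.7 CPM in GOT1-/- and 25.7 to 27.1 CPM in WT libraries. Mast cell and basophil markers (5 of 7 tested, 4 higher) summed to 21.96 to 25.2 and 15.6 to 19.3 CPM. Markers of CD8 cells, NK cells and gamma-delta T cells (4 of 6 tested, 1 higher and 1 lower) summed to 56.2 to 58.9 and 69.0 to 73.9 CPM. B cell markers (3 of 5 tested, none called) summed to 3.42 to 3.45 and 2.36 to 3.24 CPM. No marker was at 0 in all 6 libraries, and the part of such cells in the results was not tested. In bulk RNA, fewer cells of a type and less RNA per cell cannot be told apart.

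Of the 6 kinase and STAT genes 4 fell in GOT1-/- cells, and of the 4 feedback inhibitors 3 rose. Jak1, Jak2, Stat5a and Stat5b fell by 0.49, 0.55, 0.49 and 0.29 on the log2 scale, while Cish, Socs2 and Socs1 rose by 0.33, 0.30 and 0.26. Socs3 alone among the 4 inhibitors fell (-0.50). Jak3 (0.00) and Stat3 (-0.13) were not called. In all, 8 of the 10 genes were called at an adjusted p under 0.05 by edgeR's quasi-likelihood test, 3 higher and 5 lower, where 43.8% of the 12873 genes tested were called, 22.9% higher and 21% lower. Library values of the genotypes did not overlap for 7 of the 10, 3 higher and 4 lower, where this held for 53.4% of all genes, 27.7% higher and 25.8% lower. The median log2 fold change was -0.21 over the 10 genes and 0.01 over all genes tested. Each change was well under 2-fold. The counts behind them ran from 2399 to 14107 per gene and library.

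**Figure D1:**
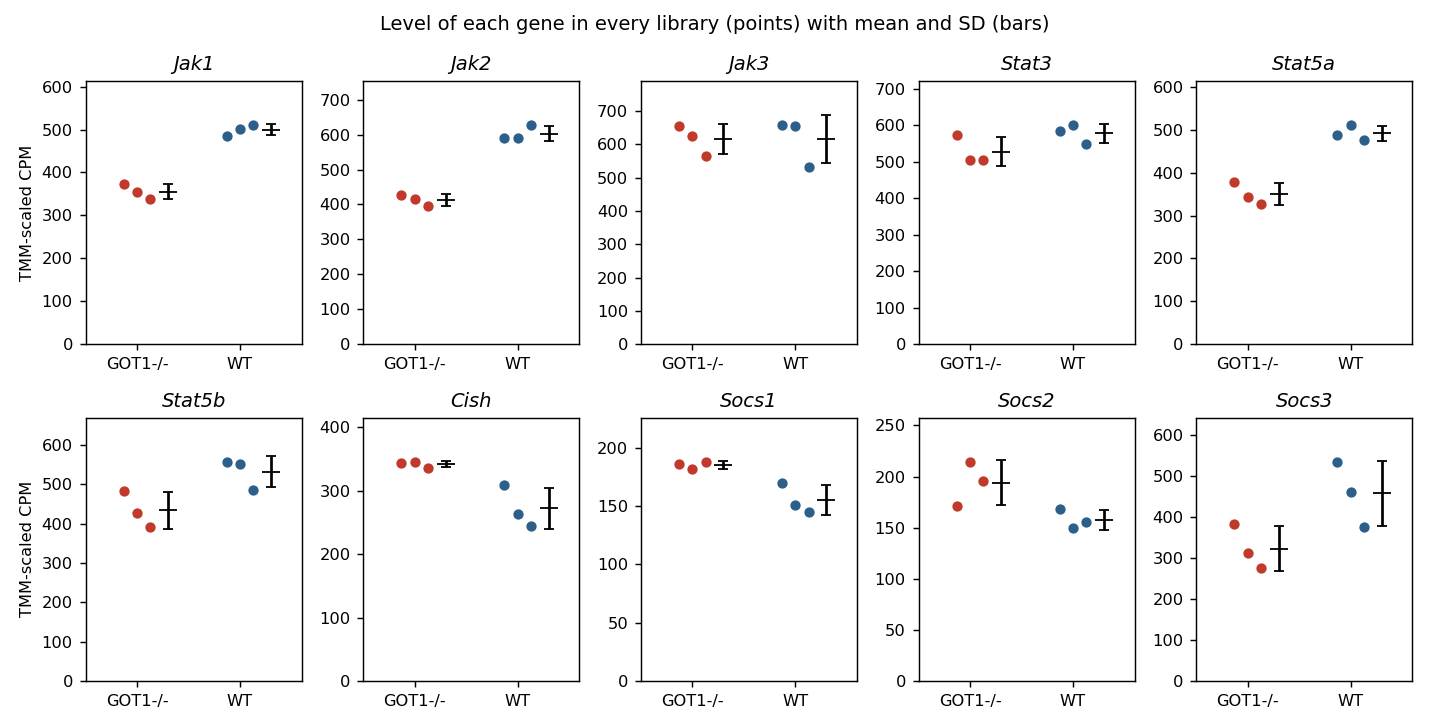
Level of each gene in TMM-scaled CPM (y axes from 0) in the 3 GOT1-/- and 3 WT libraries, with points for libraries and bars for the mean and SD. Jak1, Jak2, Stat5a and Stat5b lie lower in every GOT1-/- library than in any WT library, Cish, Socs1 and Socs2 lie higher, and Jak3, Stat3 and Socs3 overlap.

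Of the kinase genes, Jak1 and Jak2 fell and Jak3 was not called. Jak1 (ENSMUSG00000028530, chromosome 4, 101152367 to 101265282 on GRCm38, minus strand) encodes the kinase shared by gamma chain, gp130 and interferon receptors. It was at 373, 355 and 339 CPM in GOT1-/- replicates 1 to 3, against 486, 502 and 511 CPM in WT replicates 1 to 3. All GOT1-/- libraries lay below all WT libraries, with a log2 fold change of -0.49 (SE 0.07, adjusted p = 1.86e-05). Jak2 (ENSMUSG00000024789, chromosome 19, 29251828 to 29313080, plus strand) serves the IL-23, IL-12 and IFN-γ receptors and lies 14.2 Mb from Got1 on the same chromosome. Its levels were 428, 415 and 395 CPM in GOT1-/- and 590, 591 and 628 CPM in WT libraries. The groups did not overlap, and the decrease (-0.55, SE 0.07, adjusted p = 5.85e-06) was the largest of the 10 genes.

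Jak3 (ENSMUSG00000031805, chromosome 8, 71676296 to 71690575, plus strand), the partner of the common gamma chain, was at 657, 626 and 566 CPM in GOT1-/- and 659, 656 and 533 CPM in WT libraries. The groups overlapped throughout. Its log2 fold change was 0.00 (95% interval -0.18 to 0.18, adjusted p = 0.997), and its sign turned under several alternatives. Jak3 was also set against Jak1 and Jak2 within each library, where library scaling cancels. The ratio of Jak3 to Jak1, per kilobase of exon, was 2.38, 2.38 and 2.26 in GOT1-/- and 1.83, 1.77 and 1.41 in WT libraries. The ratio of Jak3 to Jak2 was 1.44, 1.42 and 1.35 in GOT1-/- and 1.05, 1.04 and 0.798 in WT libraries. Both ratios were higher in every GOT1-/- library than in any WT library. Trends with gene length and GC content do not cancel in such ratios, nor in the shares of a gene family given below. After a correction for both, the log2 fold change was -0.14 for Jak3, -0.35 for Jak1 and -0.46 for Jak2, so the kinase genes stood closer together. The ratios here and below were chosen after the levels were seen and were not tested. An exact permutation test of 3 against 3 cannot give a p under 0.1.

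With Tyk2, the remaining kinase gene of the family, the 4 JAK genes summed to 255 ± 14.7 CPM per kilobase in GOT1-/- and 312 ± 7.85 in WT cells (SD, n = 3 each), without overlap. Jak3 made up 45.2 ± 0.851% of that sum in GOT1-/- and 36.9 ± 3.46% in WT cells. Jak2 made up 32.2 ± 0.54% and 38.5 ± 2.36%, and Jak1 19.3 ± 0.223% and 22.2 ± 1.05%. Jak3 was thus first of the kinase genes per length in each GOT1-/- library and was level with Jak2 in the WT libraries, where their ranges overlapped. Tyk2 itself, at 57.0 ± 3.9 and 51.3 ± 2.21 CPM, was not called (log2 fold change 0.15, adjusted p = 0.138; 0.00975 after a correction for gene length).

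Stat5b, Stat5a and Stat3 lie side by side within 159 kb of chromosome 11 (100780731 to 100939540). Stat5b (ENSMUSG00000020919, 100780731 to 100850724, minus strand) and Stat5a (ENSMUSG00000004043, 100859351 to 100885169, plus strand) stand 8626 bases apart, and the ends of Stat5a and Stat3 (ENSMUSG00000004040, 100885098 to 100939540, minus strand) overlap by 72 bases. Reads from that overlap cannot be told apart without a stated strand setting. STAT5A and STAT5B are close paralogs that transmit the IL-2 and IL-7 signals. Stat5a was at 379, 345 and 328 CPM in GOT1-/- and 487, 512 and 476 CPM in WT libraries. It fell without overlap between the groups (log2 fold change -0.49, SE 0.07, adjusted p = 3.56e-05). Stat5b was at 482, 427 and 391 CPM in GOT1-/- and 557, 550 and 486 CPM in WT libraries. Its highest GOT1-/- library lay just below its lowest WT library, and the decrease was smaller (-0.29, SE 0.08, adjusted p = 0.00701).

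Stat5a and Stat5b can share reads. The read length is not named in the labels, so windows of 3 sizes were compared between their longest transcripts. Of the 50-base windows, 10.8% of those in Stat5a and 8.15% of those in Stat5b were identical in the other gene. For 100-base windows these shares were 2.85% and 2.15%, and for 150-base windows 0.184% and 0.138%. With their counts summed into 1 gene, the log2 fold change was -0.38 (SE 0.07, adjusted p = 0.000507). The share of Stat5b in the counts of both genes was 56.0, 55.3 and 54.4% in GOT1-/- and 53.4, 51.8 and 50.5% in WT libraries. The share was 3.34 percentage points higher in GOT1-/- cells and did not overlap, with the smallest p that an exact two-sided permutation test allows here (p = 0.1).

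Stat3, the gene for the STAT that the IL-6 and IL-23 of this medium activate, was at 574, 505 and 504 CPM in GOT1-/- and 584, 601 and 549 CPM in WT libraries. GOT1-/- replicate 1 lay among the WT libraries and the other two lay below. Stat3 was not called (log2 fold change -0.13, 95% interval -0.28 to 0.02, adjusted p = 0.145). Without GOT1-/- replicate 1 it was called lower (-0.20, adjusted p = 0.0358), and after the length correction its sign turned (0.07, adjusted p = 0.435). Relative to its neighbour Stat5a, per kilobase, Stat3 was higher in each GOT1-/- library. The ratio was 1.14, 1.10 and 1.15 in GOT1-/- and 0.898, 0.880 and 0.863 in WT libraries. The length used for Stat5a was 7133 bases, while its longest transcript has 3958. Its level beside other genes may thus read low on this scale in both genotypes. Over all 7 STAT genes, the sum was 264 ± 18.9 CPM per kilobase in GOT1-/- and 318 ± 11.8 in WT cells. Stat3 took 21.01 ± 0.354% of it in GOT1-/- and 19.1 ± 0.176% in WT cells, and Stat5a took 18.6 ± 0.149% and 21.7 ± 0.346%. Stat5b took 29.6 ± 1.14% and 30.2 ± 1.3%, which overlapped.

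Among the inhibitors, Cish and Socs2 are those most tied to STAT5. Cish (ENSMUSG00000032578, chromosome 9, 107296026 to 107302784, plus strand), whose start site carries the pair of matches shown above, was at 344, 346 and 336 CPM in GOT1-/- libraries, against 308, 264 and 245 CPM in WT libraries. The GOT1-/- libraries sat close together and above all WT libraries (log2 fold change 0.33, SE 0.08, adjusted p = 0.00273). Socs2 (ENSMUSG00000020027, chromosome 10, 95385362 to 95417180, minus strand), which encodes an inhibitor best known for limiting growth hormone signalling, was at 171, 215 and 196 CPM in GOT1-/- and 169, 150 and 155 CPM in WT libraries. The lowest GOT1-/- library stood barely above the highest WT library. The increase (0.30, SE 0.08, adjusted p = 0.00733) was not called without GOT1-/- replicate 2 (0.21, adjusted p = 0.0919).

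Socs1 (ENSMUSG00000038037, chromosome 16, 10782240 to 10785536, minus strand) was at 186, 182 and 188 CPM in GOT1-/- and 170, 151 and 145 CPM in WT libraries. The groups did not overlap (0.26, SE 0.07, adjusted p = 0.00804). Socs1 was not called once gene length was corrected for (0.14, adjusted p = 0.107), nor once length and GC content were (0.03, adjusted p = 0.7). Socs3 (ENSMUSG00000053113, chromosome 11, 117966079 to 117970047, minus strand) went the other way, at 383, 313 and 275 CPM in GOT1-/- and 536, 462 and 377 CPM in WT libraries. It was the most spread of the 10 genes among libraries of a genotype. GOT1-/- replicate 1 lay just above WT replicate 3, so the groups overlapped, yet the decrease was called (-0.50, SE 0.12, adjusted p = 0.00207) and stayed called in each of its 17 alternatives.

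Set against Socs3 within a library, each of the other inhibitors was higher in every GOT1-/- library than in any WT library. The ratio of Cish to Socs3, per kilobase, was 0.405, 0.498 and 0.551 in GOT1-/- and 0.259, 0.257 and 0.293 in WT libraries, or 1.80 times as high in GOT1-/- cells by the means. For Socs1 it averaged 0.581 ± 0.0984 in GOT1-/- and 0.341 ± 0.0365 in WT cells, and for Socs2 0.187 ± 0.0444 and 0.106 ± 0.0162 (SD, n = 3 each). In the summed level of the 8 genes of the family, Socs3 took 41.6 ± 4.07% in GOT1-/- and 54.3 ± 2.76% in WT cells. Cish took 19.96 ± 1.2% and 14.6 ± 0.339%, and Socs1 23.9 ± 1.83% and 18.4 ± 0.992%. The sum itself overlapped between genotypes, at 268 ± 18.9 CPM per kilobase in GOT1-/- and 291 ± 37.7 in WT cells. Cish was also higher relative to Stat5a in each GOT1-/- library, at 1.09 ± 0.0695 in GOT1-/- and 0.616 ± 0.0757 in WT cells.

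**Figure D2:**
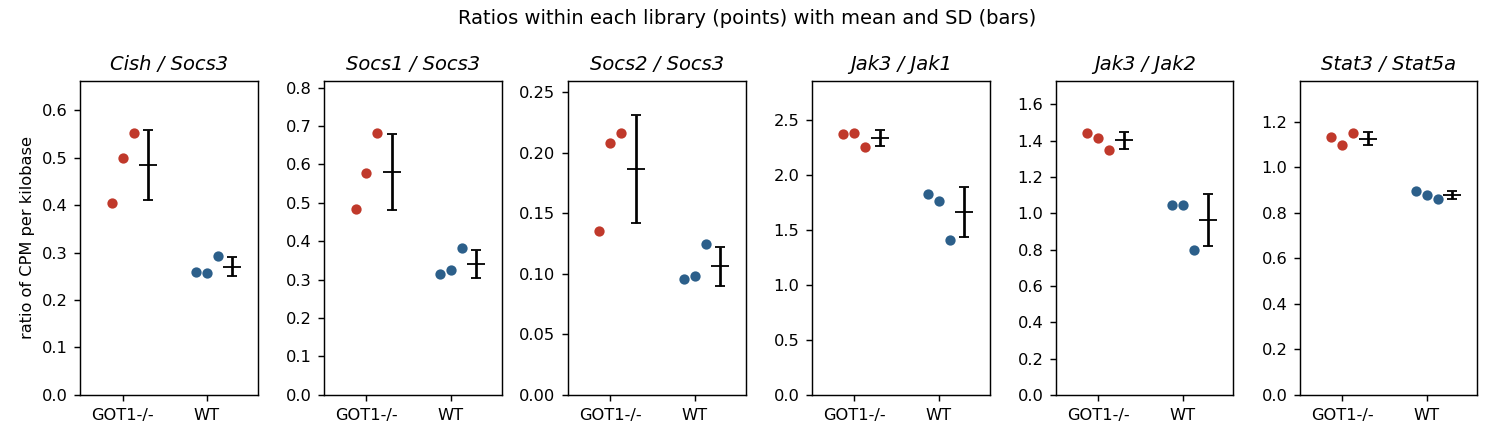
Ratios of CPM per kilobase of exon between pairs of genes (y axes from 0) in the 3 GOT1-/- and 3 WT libraries, with points for libraries and bars for the mean and SD. The 6 ratios shown are higher in each GOT1-/- library than in any WT library, and the ratio of Cish to Socs3 averages 0.485 in GOT1-/- and 0.270 in WT cells.

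Ranked by level per kilobase, the 10 genes changed places between genotypes. In GOT1-/- cells Jak3 (115 ± 8.63 CPM per kilobase) and Socs3 (112 ± 18.9) led with overlapping ranges, followed by Jak2 (82.0 ± 3.37) and Stat5b (78.2 ± 8.32), which also overlapped, and then by Socs1 (63.8 ± 1.14). Stat3 (55.4 ± 4.25) overlapped with Cish (53.3 ± 0.798), and Jak1 (49.2 ± 2.41) with Stat5a (49.1 ± 3.63). In WT cells Socs3 (158 ± 27.5) led without overlap with the next, and Jak2 (120 ± 4.24), Jak3 (115 ± 13.5) and Stat5b (95.9 ± 7.1) overlapped in turn. Jak1 (69.1 ± 1.75) and Stat5a (68.9 ± 2.54) were level, Stat3 (60.7 ± 2.81) overlapped with Socs1 (53.4 ± 4.48), and Cish (42.5 ± 5.06) followed. Socs2 was last in both genotypes, at 20.3 ± 2.29 and 16.6 ± 1.02. The lengths are those of all annotated exons together (2891 to 9531 bases), so a gene whose long exons are little used reads low on this scale. Stat5a, whose longest transcript is far shorter than the length used, may be such a gene.

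Fold changes in these libraries followed gene length, with shorter genes higher and longer genes lower in GOT1-/- cells. Among protein-coding genes of a length like Jak1, Stat5a and Cish (6134 to 7496 bases) the median log2 fold change was -0.10, with 13.6% called higher and 29.3% lower. Around Stat3 and Socs2 (7496 to 9759 bases) the median was -0.16, with 13.4% higher and 38.7% lower, and around Socs1 and Socs3 (2506 to 3099 bases) it was 0.14, with 33.9% higher and 11.1% lower. By this length, Cish and Socs2 rose among genes that more often fell, and Socs3 fell among genes that more often rose. The groups and the corrections use the summed length of all annotated exons, which for Cish was 6419 bases of a span of 6759. A gene whose long exons are little used would thus be placed among genes longer than its main transcript. After the length correction 7 of the 10 genes were called, 2 higher and 5 lower, where 40.7% of all genes were, 21% higher and 19.6% lower. After the correction for length and GC content, chosen after the data were seen, it was again 7, 2 higher and 5 lower, where 41.6% of all genes were, 21.5% higher and 20.2% lower. Socs2 then rose by 0.54 (adjusted p = 4.31e-05), Cish by 0.33 (adjusted p = 0.000553), and Socs3 fell by 0.72 (adjusted p = 1.09e-05) on the log2 scale.

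**Figure D3:**
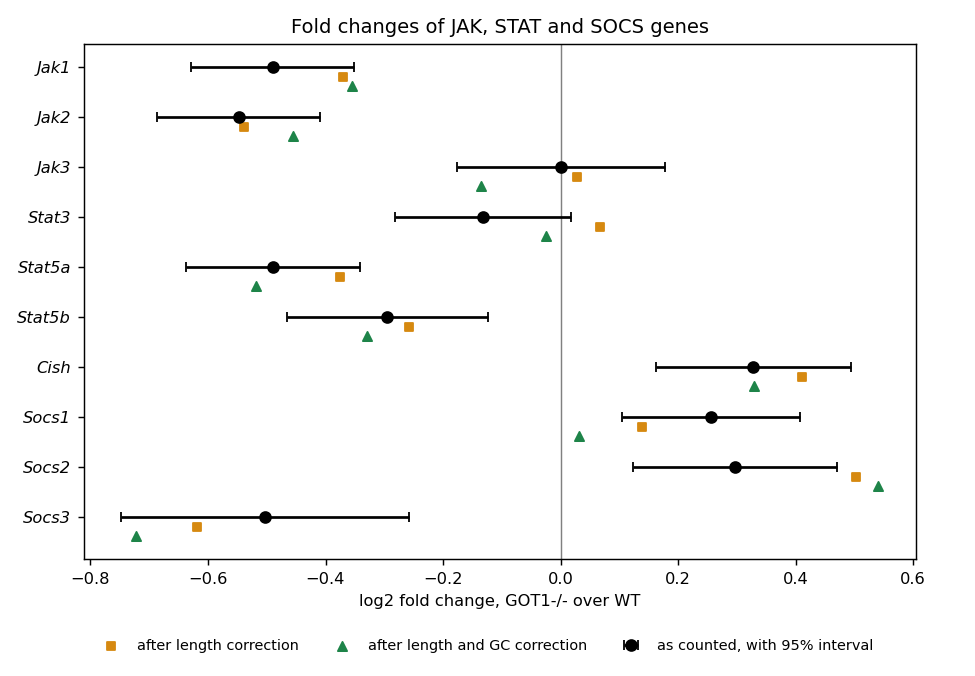
Log2 fold change (GOT1-/- over WT, x axis) of the 10 genes from edgeR, with circles and bars for the estimate and its 95% interval, squares for the estimate after the length correction and triangles for that after the length and GC correction. Socs1 moves towards 0 under both corrections (0.14 and 0.03), Stat3 turns to 0.07 under the length correction, and Socs3 (-0.62 and -0.72) and Socs2 (0.50 and 0.54) move away from 0.

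Other genes of the pathway were counted in 8 lists, chosen with earlier results of these data known. Of their 79 genes, the 10 above left out, 74 were tested, 17 rose and 26 fell, with a median log2 fold change of -0.11. Over all genes tested, 22.9% rose and 21% fell, so the count of those that rose was near the background. Among the 5 other kinase and STAT genes 1 fell and none rose, with a median of -0.12. Stat4, which transmits IL-12 and IL-23 signals, fell to 22.8 ± 2.17 CPM in GOT1-/- cells, against 41.9 ± 3.76 CPM in WT cells (log2 fold change -0.88, adjusted p = 2.47e-06). Stat2 (-0.12) and Stat6 (-0.11) were not called. After the length and GC correction Stat6 was called lower (-0.20, adjusted p = 0.00807). The list then had 2 genes lower, as it did without GOT1-/- replicate 3. Of the other SOCS genes, Socs5 fell to 11.4 ± 0.411 CPM, against 14.2 ± 1.6 CPM in WT cells (-0.32, adjusted p = 0.0317), whereas Socs4 (-0.09), Socs6 (-0.14) and Socs7 (0.04) were not called. Leaving out WT replicate 1, GOT1-/- replicate 1 or GOT1-/- replicate 2 ended the Socs5 call, as did upper-quartile scaling and an adjusted p under 0.01.

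Genes of phosphatases, of PIAS proteins, which restrain activated STATs, and the adaptor gene Sh2b3 formed a further list. Of these 10 genes 2 rose and 4 fell (22.9% and 21% of all genes tested). Ptprc, which encodes the surface phosphatase CD45, fell to 766 ± 50.6 CPM in GOT1-/- cells, against 1316 ± 69.5 CPM in WT cells (-0.78, adjusted p = 3.54e-07). The decrease in Ptprc, a long gene of 18313 bases, was smaller after the length correction (-0.41, adjusted p = 6.47e-05). It was -0.32 after the length and GC correction (adjusted p = 0.000225). Ptpn2, a nuclear and endoplasmic phosphatase of JAK1, JAK3 and STATs, fell (-0.30, adjusted p = 0.00428), as did Pias1 (-0.44) and Pias2 (-0.33). Its close relative Ptpn1, which acts on JAK2 and TYK2, rose to 368 ± 9.87 CPM, against 277 ± 4.49 CPM in WT cells (0.41, adjusted p = 7.03e-05). Pias4 rose (0.29, adjusted p = 0.00762), though correcting for length and GC content ended its call (0.08, adjusted p = 0.33). Without GOT1-/- replicate 2 only 1 gene of the list rose. Ptpn6 (-0.01), Ptpn11 (0.11), Sh2b3 (-0.10) and Pias3 (-0.24) were not called as counted, but all of them were after the length and GC correction. Ptpn6 then stood at -0.20 (adjusted p = 0.00713), Ptpn11 at 0.19 (adjusted p = 0.0136), Sh2b3 at -0.22 (adjusted p = 0.0133) and Pias3 at -0.37 (adjusted p = 0.00425), and 7 of the 10 genes were called lower. The length correction alone was enough for Ptpn11 (0.24, adjusted p = 0.00501) and Pias3 (-0.30, adjusted p = 0.0271).

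Receptor chains upstream of these kinases were lower or not called, with 1 exception. Of 12 tested chains of the gp130, IL-12, IL-10 and interferon receptors 8 fell and 1 rose, where 21% of all genes tested fell and 22.9% rose, with a median log2 fold change of -0.36. Ifngr1, the ligand-binding chain of the IFN-γ receptor, fell to 122 ± 3.58 CPM in GOT1-/- cells, against 188 ± 7.14 CPM in WT cells. Ifnar1 fell by 0.55, Il6st, which encodes gp130, by 0.73, and the IL-6 receptor gene Il6ra by 0.46 on the log2 scale. After the length correction the values were smaller for Ifnar1 (-0.49), Il6st (-0.50) and Il6ra (-0.29), and larger for Ifngr1 (-0.74). The 1 that rose, named after its values were seen, was Il12rb1 (0.35, adjusted p = 0.000448), the chain common to the IL-12 and IL-23 receptors. Among 7 tested chains of the gamma chain receptors 2 fell, Il7r (-1.40) and Il21r (-0.24), and none rose, against the same shares of all genes. Without GOT1-/- replicate 2 only 1 fell, and 4 fell after the length and GC correction. The IL-2 receptor gene Il2ra, named after its values were seen, was at 2853 ± 23.5 CPM in GOT1-/- and 2857 ± 80.1 CPM in WT cells (adjusted p = 0.982).

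Cytokine genes whose products signal through JAKs came next, with 7 of 13 tested genes higher and 1 lower, where 22.9% of all genes tested were higher and 21% lower, and a median log2 fold change of 0.58. Some of these were low, such as Il6 (1.04 CPM in GOT1-/- and 0.306 CPM in WT cells) and Ifng (1.53 and 0.456 CPM). Both were named after their values were seen. They passed the low-count filter through their GOT1-/- libraries, and Il2, below, through its WT libraries. With only genes of a mean of at least 1 CPM kept, 5 were higher and 0 lower. Il24, whose product acts through STAT3, reached 235 ± 13.3 CPM in GOT1-/- cells, against 68.4 ± 2.75 CPM in WT cells (1.78, adjusted p = 5.35e-11). Il22 rose by 2.28 on the log2 scale, to 18.6 ± 0.3 CPM, against 3.87 ± 0.679 CPM in WT cells. Il13 rose by 2.21, but only to 3.73 ± 0.663 CPM, with 18, 17 and 11 counts in WT libraries. Lif, a ligand of gp130, rose to 452 ± 15.4 CPM, against 303 ± 9.11 CPM in WT cells (0.58, adjusted p = 3.30e-06). The 1 that fell, named after its values were seen, was Il2, which had 3, 15 and 6 counts in GOT1-/- and 19, 17 and 15 counts in WT libraries (adjusted p = 0.0467). After the length correction, and after that for length and GC content, 2 genes of the list were lower. The Il2 call did not hold with DESeq2, upper-quartile scaling, no filter on low counts, an adjusted p under 0.01 or the replicate block, nor without WT replicate 1, 2 or 3 or GOT1-/- replicate 1.

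Known targets of STAT5 and of STAT3 formed the last lists. Of 12 STAT5 targets 5 rose and 2 fell, where 22.9% of all genes tested rose and 21% fell, with a median log2 fold change of 0.00. Lta, the lymphotoxin alpha gene, rose to 292 ± 47.2 CPM in GOT1-/- cells, against 70.02 ± 7.2 CPM in WT cells (2.06, adjusted p = 8.57e-10). The cyclin gene Ccnd3 rose by 0.73, and the survival genes Bcl2l1 and Bcl2 by 0.54 and 0.45 on the log2 scale. The 2 that fell, named after their values were seen, were Myc (-0.37) and Mcl1 (-0.17). Without WT replicate 1, WT replicate 2 or GOT1-/- replicate 2, with upper-quartile scaling, with no filter or at an adjusted p under 0.01, only 1 fell, and 4 fell after the length correction and 5 after the length and GC correction. Of 16 STAT3 targets 2 rose and 8 fell, set against the same shares, with a median of -0.20. Over the alternatives the number that fell ran from 6, as with upper-quartile scaling, to 11 after the length and GC correction. The number that rose ran from 1, after that correction, to 3 without GOT1-/- replicate 1. Maf fell to 202 ± 14.9 CPM in GOT1-/- cells, against 457 ± 40.8 CPM in WT cells (-1.17, adjusted p = 1.51e-08). Hif1a fell by 0.41 on the log2 scale. Il17a (0.70) and Junb (0.37) rose, Junb being named after its value was seen, and Junb was not called after the length and GC correction (0.07, adjusted p = 0.328). The difference between the lists of targets was not tested, and many of these genes answer to other factors too.

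**Figure D4:**
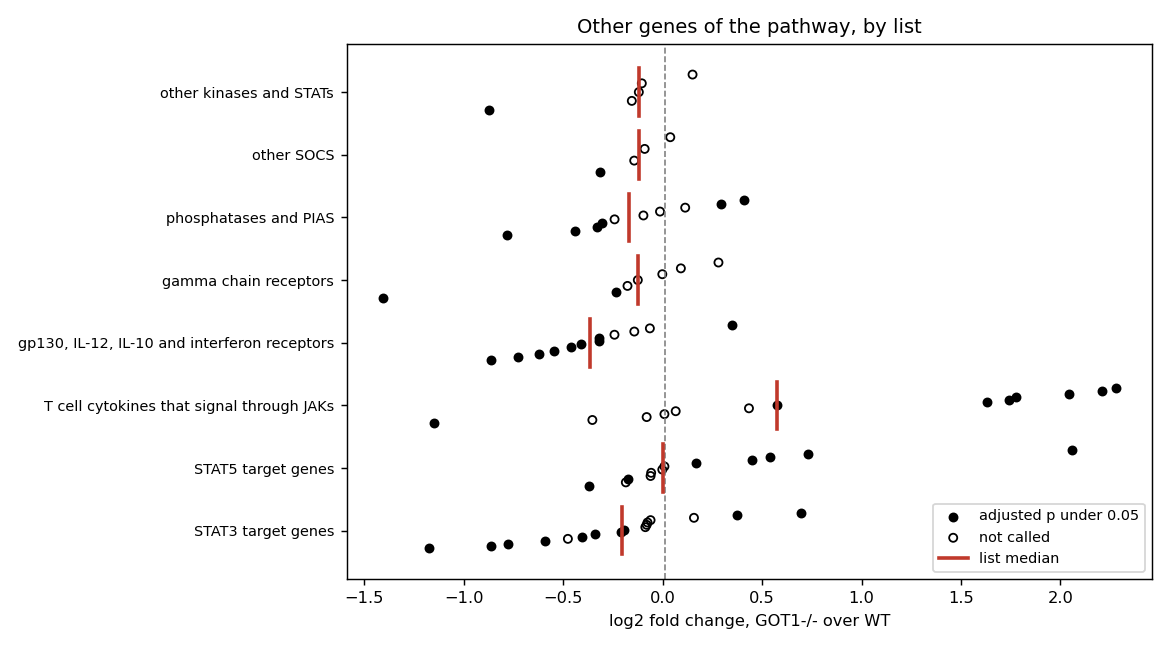
Log2 fold change (GOT1-/- over WT, x axis) of the tested genes in 8 lists of other pathway genes, with filled circles for an adjusted p under 0.05, open circles for genes not called, red bars for list medians and a dashed line for the median of all genes tested (0.01). Receptor chains of the gp130, IL-12, IL-10 and interferon group lie mostly below 0 (median -0.36), and cytokine genes mostly above (median 0.58). The cytokine genes include Il6 and Ifng, which passed the low-count filter through their GOT1-/- libraries, and Il2, which passed through its WT libraries.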

How the data were processed

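Poly-A RNA of 3 GOT1-/- and 3 WT Th17 libraries had been sequenced. The authors deposited raw read counts per gene for 54532 genes. STAR and build GRCm38 were used, per the submitters' processing notes. No STAR version, counting tool, strand setting or annotation is named there. All 10 genes had the coordinates, and the summed exon length, of GENCODE M21. Of symbols turned into dates, 27 were restored from gene IDs. No library was a copy of another: chi-square over its degrees of freedom ran between 3.76 and 13.7 for pairs of a genotype.

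The comparison used R 4.3.3 and edgeR 4.0.16: filterByExpr (minimum count 10, minimum total 15; 12873 genes left), TMM, and the two-sided quasi-likelihood F-test with Benjamini-Hochberg adjustment over all genes tested. CPM per kilobase used the deposited length. Alternatives were DESeq2 1.42.0, limma-voom (limma 3.58.1), other scalings and filters, an adjusted p under 0.01, the replicate number as a block, each library left out, and a length correction (robust splines with 5 degrees of freedom as offsets, fitted to log2 CPM, prior count 2). The length and GC correction was added after the data were seen. The procedure was tested on simulated data. Named genes were the 10, Got1, each gene of 3 further lists and up to 4 called genes with the smallest adjusted p from each of 5 others; some of these genes are not reported here. The 10 genes and the lists were chosen with earlier results of these data known.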

Additional observations from a re-analysis of the deposited data

How the results depend on the processing

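Over 172 combinations of the 10 genes with an alternative, 159 kept their direction and their side of the threshold. The 9 that turned in sign were of genes not called. Jak3 had log2 fold changes of -0.0088 with DESeq2, -0.0088 with RLE scaling, -0.017 on library totals only, -0.0084 with a mean of at least 1 CPM, -0.14 after the length and GC correction, -0.10 without WT replicate 3, -0.047 without GOT1-/- replicate 1 and -0.019 without GOT1-/- replicate 2, and with a library left out it ran between -0.10 and 0.057. Stat3 had 0.067 after the length correction. The cause was not tested. Socs1 lost its call under both corrections, Socs2 without GOT1-/- replicate 2, and Stat3 gained one without GOT1-/- replicate 1. Between 7 and 9 of the 10 genes were called with a library left out, and 4426 to 5718 genes in all.

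With the replicate number as a block, 8 of the 10 genes and 5792 genes in all were called. Deviations of same-numbered libraries correlated at 0.059, -0.0258 and 0.0332 across genes, so the numbers were not taken to pair the samples. Of the GOT1-/- libraries, only replicate 1 correlated best with its own number. Replicate 2 did so with WT replicate 1 (0.0589) and replicate 3 with WT replicate 2 (0.0672). Depth was not limiting for the 10 genes (at least 2399 counts), but Il2 had 3 to 19, Il6 0 to 24, Ifng 7 to 37 and Il13 11 to 77.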
